A study of Rattus norvegicus with 7 samples.

Results

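The rat miRNAs miR-192, miR-192* and miR-194 were followed in livers of rats fed perfluorooctanesulfonate (PFOS), a persistent fluorinated surfactant. They were chosen by name: every array row named rno-miR-192, rno-miR-192* or rno-miR-194 was used, which gave 3 of the 677 rat miRNAs on the array. Livers came from adult male Sprague-Dawley rats that ate a diet with PFOS at 50 mg/kg of diet for 28 days (4 rats, here PFOS 1 to 4) or the control diet for the same time (3 rats, here Control 1 to 3). Total RNA of each rat was labelled with Cy3 and hybridised to its own Agilent rat miRNA array, and the submitters left out another control array that did not pass their quality checks. The study asked about thyroid hormone homeostasis, and the comparison here asks whether the abundance of these liver miRNAs differed with dietary PFOS. With a single diet dose and a single time, no dose or time course could be examined. Whole liver was profiled, so fewer cells of a type and less RNA per cell cannot be told apart.

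A microRNA is cut from a hairpin precursor whose arms can each give a mature strand, and the strand loaded into an Argonaute protein represses mRNAs that pair with its seed, bases 2 to 8. The array names the more abundant strand plainly and marks the other with a star. miR-192 and miR-194 are processed from neighbouring hairpins and are known as abundant miRNAs of hepatocytes and of gut and kidney epithelium. In human cells their genes are known to be activated by p53. In blood, miR-192 is used with miR-122 as a marker of liver injury. miR-215 is a close relative of miR-192 that is best known from the gut.

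The mature strands are shown because the members' identity rests on them, with the seed in capitals. Sequences and coordinates are RefSeq's for the rat assembly GRCr8, in which the plain array names correspond to the 5p strands and the starred ones to the 3p strands.
miR-192 (rno-miR-192-5p): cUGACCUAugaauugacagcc
miR-192* (rno-miR-192-3p): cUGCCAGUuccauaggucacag
miR-194 (rno-miR-194-5p): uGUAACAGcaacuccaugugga
miR-194* (rno-miR-194-3p): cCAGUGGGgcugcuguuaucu
miR-215 (rno-miR-215): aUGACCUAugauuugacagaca

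The seed of miR-192 was shared with miR-215 and with no other of the 694 mature rat miRNAs in the RefSeq table. The pair differed at 3 of 21 compared bases, C1A, A12U and C20A, where positions count from the 5′ end, miR-192 is given first and miR-215 last. The seed of miR-194 was found in no other mature miRNA of the table. The hairpins are shown with both mature strands in capitals, since the comparison of arms below rests on a single precursor giving both.
Mir192 hairpin: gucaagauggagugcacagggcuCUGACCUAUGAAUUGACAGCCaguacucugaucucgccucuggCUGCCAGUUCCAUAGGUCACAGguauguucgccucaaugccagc
Mir194-2 hairpin: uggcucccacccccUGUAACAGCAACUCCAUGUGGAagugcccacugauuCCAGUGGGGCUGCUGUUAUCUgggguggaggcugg

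Mir194-2 lies at chr1:212994024-212994108 and Mir192 at chr1:212994209-212994318, both on the plus strand of GRCr8, with 100 bases between the hairpins. No protein-coding gene overlapped them, and their nearest protein-coding neighbours were Atg2a and Ehd1. Genes of other kinds were not examined for overlap. A second copy of the miR-194 gene, Mir194-1, lies with Mir215 on chromosome 13 inside Iars2, with 191 bases between the hairpins. The 2 copies of miR-194 give 1 identical mature sequence, so the miR-194 signal cannot be assigned to either locus. The miR-192 strand comes from 1 gene.

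Precision was limited by the 7 arrays. Of 677 miRNAs, 175 were tested, the filter being detection in the complete Control group or in 3 or more PFOS livers. miR-192 and miR-194 were well above background on all 7 arrays. miR-192* was detected on 4 of 4 PFOS arrays and 1 of 3 Control arrays, so that it passed the filter through the PFOS group. The relatives were dimmer still. miR-194* was detected on 1 PFOS array and no Control array, and miR-215 on none, so neither was tested and no fold is given. Each PFOS array detected 161 to 200 miRNAs in all and each Control array 131 to 174, so these counts are not particular to the dim members. Before any scaling, every PFOS array outshone every Control array: the median signal of the 123 miRNAs detected on all arrays was 226 to 326 on PFOS arrays and 133 to 176 on Control arrays (ratio 1.73; exact two-sided permutation test over 35 splits, p = 0.0286, the smallest these groups allow, and 0.0571 adjusted over 4 array measures). All arrays sat on 1 slide, and each slide row held both groups.

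After normalisation, no difference between PFOS and Control livers was detected for miR-192 or miR-194, and miR-192* was too close to background for a test. The signal of miR-192 was 4330.5, 4077, 4259 and 4494 on PFOS arrays 1 to 4, and 4629, 4305 and 4752 on Control arrays 1 to 3. The groups overlapped, with PFOS 1 and PFOS 4 above Control 2 and PFOS 2 the lowest of all. miR-192 averaged 4290.1 ± 173 in PFOS livers (SD, n = 4) and 4562 ± 231 in Control livers (SD, n = 3). The log2 fold change was -0.09 (SE 0.07, 95% interval -0.26 to 0.08; limma, adjusted p = 0.562 over 175 miRNAs), or a fold of 0.941 with an interval of 0.834 to 1.06.

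For miR-194 the normalised signal was 1357, 1355, 1502 and 1299 on PFOS arrays 1 to 4, and 1531, 1439 and 1506 on Control arrays 1 to 3. PFOS 3 fell inside the Control range, and the other PFOS arrays lay below it. The mean was 1378 ± 86.7 for PFOS livers and 1492 ± 47.9 for Control livers. The log2 fold change was -0.12 (SE 0.08, 95% interval -0.30 to 0.07; limma, adjusted p = 0.499).

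miR-192*, the minor strand of the miR-192 hairpin, read 30.3, 26.6, 26.2 and 25.2 on PFOS arrays 1 to 4, and 28.3, 31.8 and 28.4 on Control arrays 1 to 3. PFOS 1 lay inside the Control range, and the 2 Control arrays on which it was not well above background read no lower than the one on which it was. The readings differed by -0.13 on the log2 scale (SE 0.09), which is given as a description: the filter was passed through the PFOS arrays, and 2 of the 3 Control readings were not well above background.

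**Figure D1:**
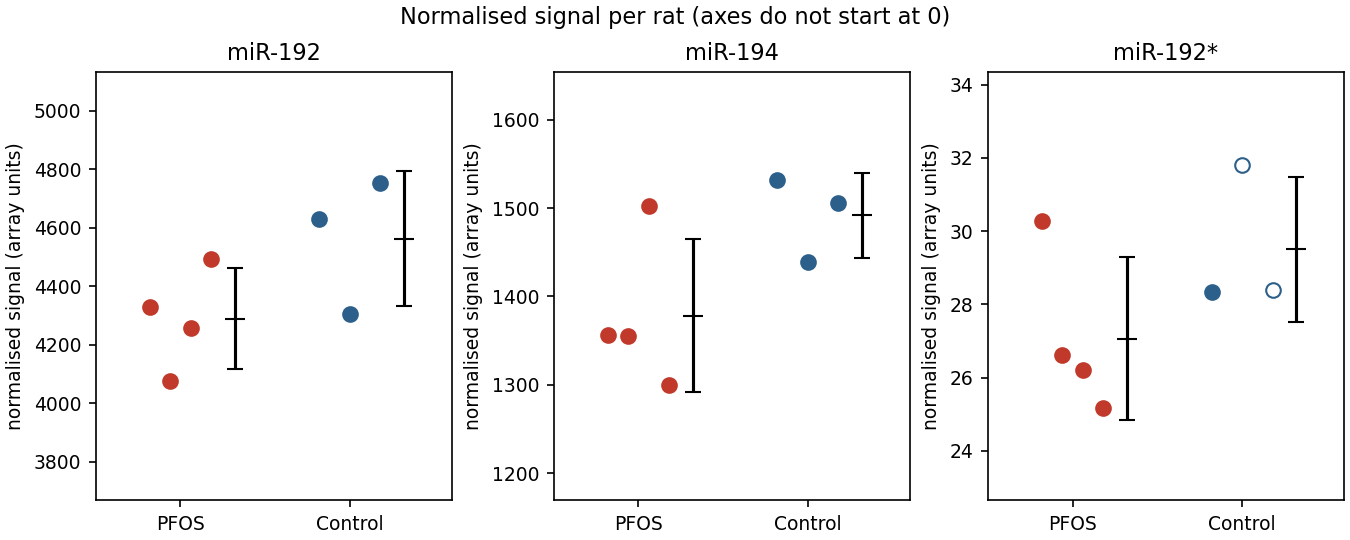
Normalised signal (array units, axes not from 0) of miR-192, miR-194 and miR-192* on each array, PFOS at the left and Control at the right of each panel. Each point is 1 rat, open points are arrays on which the miRNA was not well above background, and bars give mean ± SD; the groups overlap for all 3 members.

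Neither miR-192 nor miR-194 was called, against 0 of 175 tested miRNAs (0%) at an adjusted p under 0.05 by limma. At an unadjusted p under 0.05 the count was 34 of 175 (19.4%), and neither was among them. Groups that did not overlap were seen for 17 of 175 miRNAs with PFOS lower (9.71%) and for none of the members. Within the first slide row (PFOS 1, PFOS 2 and Control 1), the log2 difference was -0.14 for miR-192, -0.18 for miR-194 and 0.00 for miR-192*. Within the second row (PFOS 3, PFOS 4, Control 2 and Control 3) it was -0.05 for miR-192, -0.08 for miR-194 and -0.23 for miR-192*. The intervals do not exclude a modest decrease, so the result is that no difference was detectable with 7 arrays and not that the levels were equal.

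Each member had 2 probes with 10 spots each. Both probes of miR-192 gave the same small negative value, a log2 fold change of -0.10 for A_26_P00001435 (SE 0.08; limma, adjusted p = 0.525 over 380 probes) and -0.10 for A_26_P00001436 (SE 0.07, adjusted p = 0.464). Those of miR-194 gave -0.11 for A_26_P00001441 (SE 0.08, adjusted p = 0.421) and -0.08 for A_26_P00001442 (SE 0.07, adjusted p = 0.568). No member probe was called, against 2 of 380 probes (0.526%). The starred strand rested on 1 probe: A_26_P00003072 was detected on 4 PFOS arrays and 1 Control array, where its readings differed by 0.04 on the log2 scale (SE 0.09), while A_26_P00003071 was detected on no array and has no fold. None of the 5 detected member probes separated the groups, against 20 of 380 probes with PFOS lower (5.26%) and 81 with PFOS higher (21.3%). The 380 include undetected probes of tested miRNAs. A probe at the floor on every array reads higher on all PFOS arrays after normalisation, and A_26_P00003071 was such a probe. The 21.3% is thus partly set by the floor and is no measure for detected probes.

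The paired probes of a member were also compared within each array. The brighter over the dimmer probe of miR-192 gave 1.95 ± 0.09 on PFOS arrays and 2.0 ± 0.09 on Control arrays (SD, n = 4 and 3; exact two-sided permutation test, p = 0.429). For miR-194 it gave 2.32 ± 0.05 on PFOS arrays and 2.30 ± 0.07 on Control arrays (exact p = 0.771). Neither ratio differed beyond the spread between arrays. Spots of a probe varied by 1.83% to 12.6% (coefficient of variation within an array) for miR-192 and by 2.99% to 15.8% for miR-194, with 8 to 10 spots kept.

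The ratio of miR-192 to miR-194 within an array sets the strands against each other, with miR-194 from both of its genes together, and scaling an array by 1 factor leaves it the same. It stood at 3.19, 3.01, 2.83 and 3.46 on PFOS arrays 1 to 4, and at 3.02, 2.99 and 3.16 on Control arrays 1 to 3. The PFOS values lay on both sides of the Control values and spanned a wider range. The means were 3.12 ± 0.27 for PFOS livers and 3.06 ± 0.09 for Control livers. Their log2 difference was 0.03 (exact two-sided permutation test, p = 0.686). In the deposited table, described further on, the log2 difference was -0.13 (exact p = 0.143). From unscaled signals the means were 3.08 ± 0.23 in PFOS livers and 3.11 ± 0.10 in Control livers. Probes differ in how well they bind, so the size of the ratio is not a ratio of molecules.

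The ratio of miR-192 to miR-192* compares the strands that 1 hairpin gives, which reflects both strand choice and strand stability. It was 143, 153, 163 and 179 on PFOS arrays 1 to 4, and 163, 135 and 167 on Control arrays 1 to 3. Both groups covered much the same range, with means of 159 ± 15.1 in PFOS livers and 155 ± 17.4 in Control livers. The log2 difference was 0.04 (SE 0.12). On Control 2 and Control 3 the starred strand was not well above background, so these ratios are a description. Of the 21 precursors with both named strands tested, 1 was called in limma (4.76%), and miR-192 was not. In the deposited table the log2 difference of this ratio was -0.43. There miR-192 alone gave -0.44 and miR-192* gave -0.01. The ratio in that table thus restates the difference of miR-192 and is a description too. The direction depended on the processing.

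**Figure D2:**
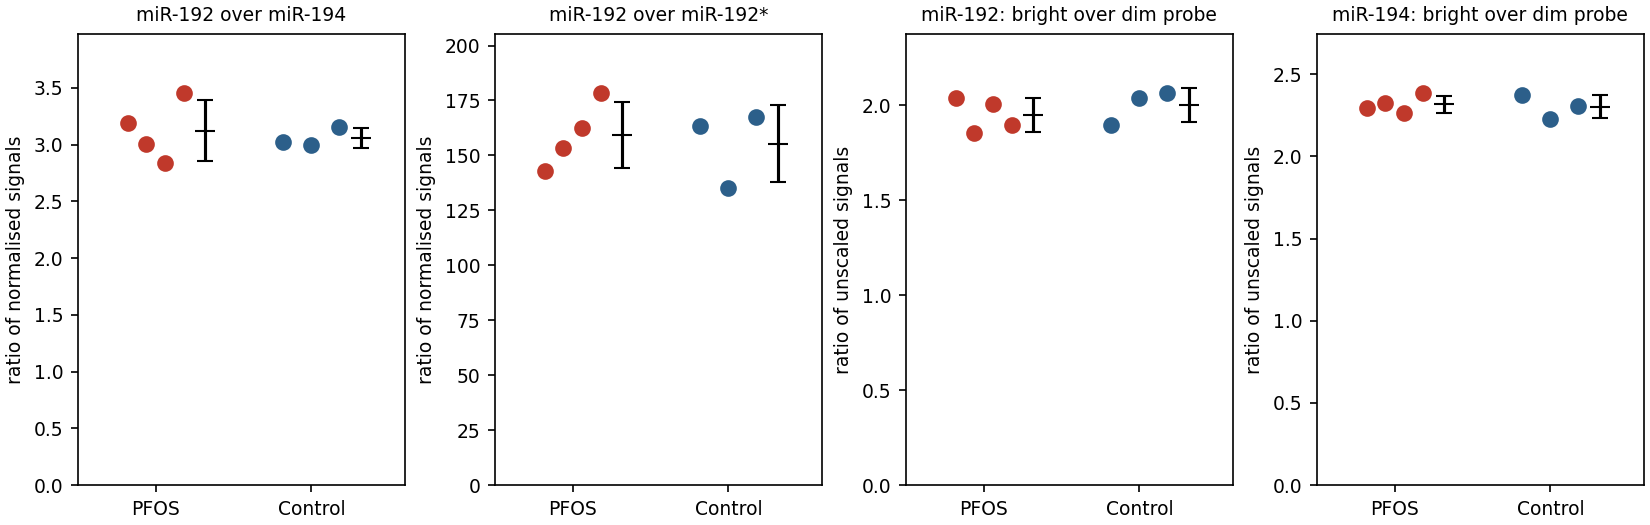
Ratios within each array, with PFOS left of Control in each panel: miR-192 over miR-194 and miR-192 over miR-192* (normalised signals), and the bright over the dim probe of miR-192 and of miR-194 (unscaled signals). Points are arrays, bars are mean ± SD, and axes start at 0; means differ between groups by less than the spread between arrays in every panel.

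Before scaling the picture was the opposite in sign, and it followed the brightness of the arrays. The unscaled signal of miR-192 was 4005, 5231, 6778 and 5695 on PFOS arrays 1 to 4, and 3558, 2862 and 3886 on Control arrays 1 to 3. Every PFOS array lay above every Control array, by 0.65 on the log2 scale of the group means (exact two-sided permutation test, p = 0.0571). That pattern was shared by 82 of 175 tested miRNAs (46.9%).

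The unscaled signal of miR-194 was 1303, 1782, 2332 and 1668 on PFOS arrays 1 to 4, and 1185, 918 and 1212 on Control arrays 1 to 3. PFOS 3 was the brightest and Control 2 the dimmest array for both miR-192 and miR-194. The log2 difference was 0.66 for miR-194 (exact p = 0.0571), without overlap. The readings of miR-192* differed by 0.64, also without overlap. That value is a description, since miR-192* passed the filter through the PFOS arrays, which favours this direction. The median over all tested miRNAs was 0.70, above the value of each member.

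Set against each array's own median signal, miR-192 stood at 21.0 ± 2.46 times the median on PFOS arrays and 23.4 ± 4.41 times on Control arrays (exact p = 0.486). miR-194 stood at 6.84 ± 0.79 times on PFOS arrays and 7.50 ± 1.19 times on Control arrays (exact p = 0.514). As a share of the summed signal of all miRNAs, miR-192 made up 2.98% to 3.17% on PFOS arrays and 2.90% to 3.28% on Control arrays. The labelling spike-in, a synthetic RNA added before labelling, read 6571 to 10686 on PFOS arrays and 3431 to 3659 on Control arrays. The part of labelling in the brightness of the arrays was not tested.

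**Figure D3:**
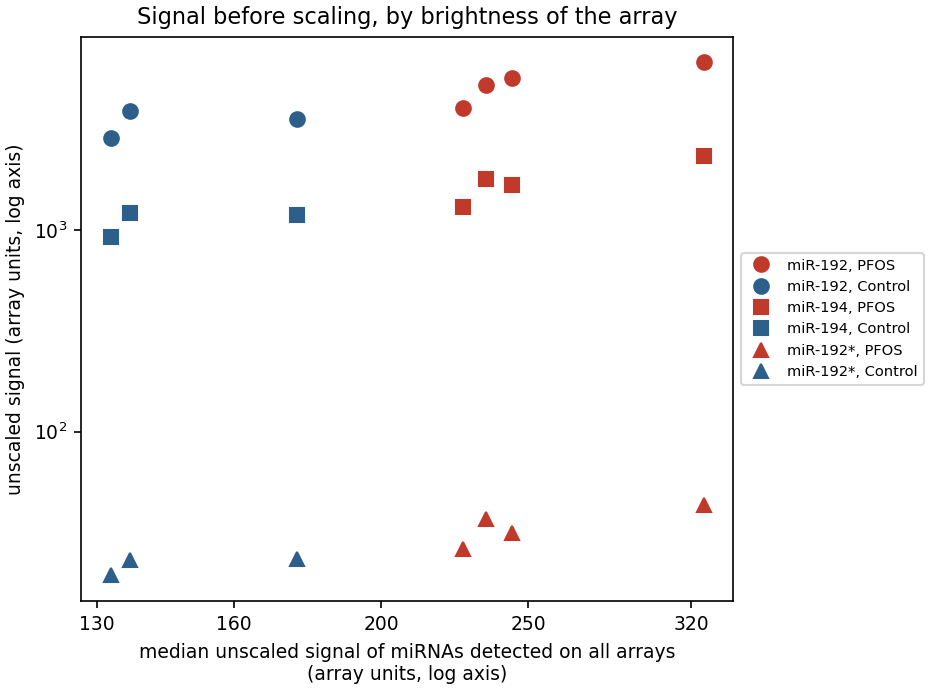
Unscaled signal of the 3 members (array units, log axis) against the median unscaled signal of the miRNAs detected on all arrays (array units, log axis), with 1 point per array and member. The PFOS arrays, with medians of 226 to 326, lie to the right of the Control arrays, at 133 to 176, and each member is higher on them.

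The deposited value table, log2 values that the authors normalised by cyclic lowess, gave lower values of miR-192 and miR-194 in PFOS livers. In that table miR-192 had 10.95, 10.70, 10.77 and 10.78 on PFOS arrays 1 to 4, and 11.11, 11.29 and 11.31 on Control arrays 1 to 3. All PFOS values lay below all Control values, a log2 difference of -0.44 (SE 0.07). For miR-194 the table had 9.38, 9.26, 9.35 and 9.18 on PFOS arrays, and 9.56, 9.63 and 9.60 on Control arrays, again with no overlap and a log2 difference of -0.30 (SE 0.05). Groups without overlap and with PFOS lower were seen for 32 of the 175 tested miRNAs in the table (18.3%). miR-192* gave -0.01 there.

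Whether these differences passed depended on which miRNAs were tested alongside. Over all 677 rows of the table, miR-192 and miR-194 each had an adjusted p of 0.0780 by limma, and 1 row was called lower (0.148%). Over the 175 miRNAs tested above, the adjusted p was 0.0348 for miR-192 and 0.0411 for miR-194, and both were among 9 called lower (5.14%). Those calls changed when arrays were left out. For miR-192 the call held without PFOS 1 (0.0135) or without Control 1 (0.0396), and was lost without PFOS 2, PFOS 3, PFOS 4, Control 2 or Control 3, where the adjusted p reached 0.122. For miR-194 it held without PFOS 1 (0.0254) and was lost without any of the other 6 arrays, where it reached 0.132. The differences themselves stayed between -0.50 and -0.40 for miR-192 and between -0.33 and -0.26 for miR-194 as each array was left out.

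The differences in the table went with brightness. Among the 20 brightest tested miRNAs, which include miR-192 and miR-194, 19 of 20 were lower in PFOS in the table, with a median log2 difference of -0.29 and 7 called. Among the other 155 miRNAs, 81 were lower, the median was -0.01 and 2 were called. In the normalised scanner signals, 7 of the same 20 were lower and their median was 0.02. The loess used for those signals evens out differences that go with brightness, so a median near 0 was set by the method. Before scaling, none of the 20 was lower and their median was 0.78. When the median pixel signal was taken without background subtraction through the loess used here, the log2 fold change was -0.10 for miR-192 (limma, adjusted p = 0.258) and -0.13 for miR-194 (adjusted p = 0.221). How the authors set their lowess is unstated in the labels, and its part in the differences was not tested.

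**Figure D4:**
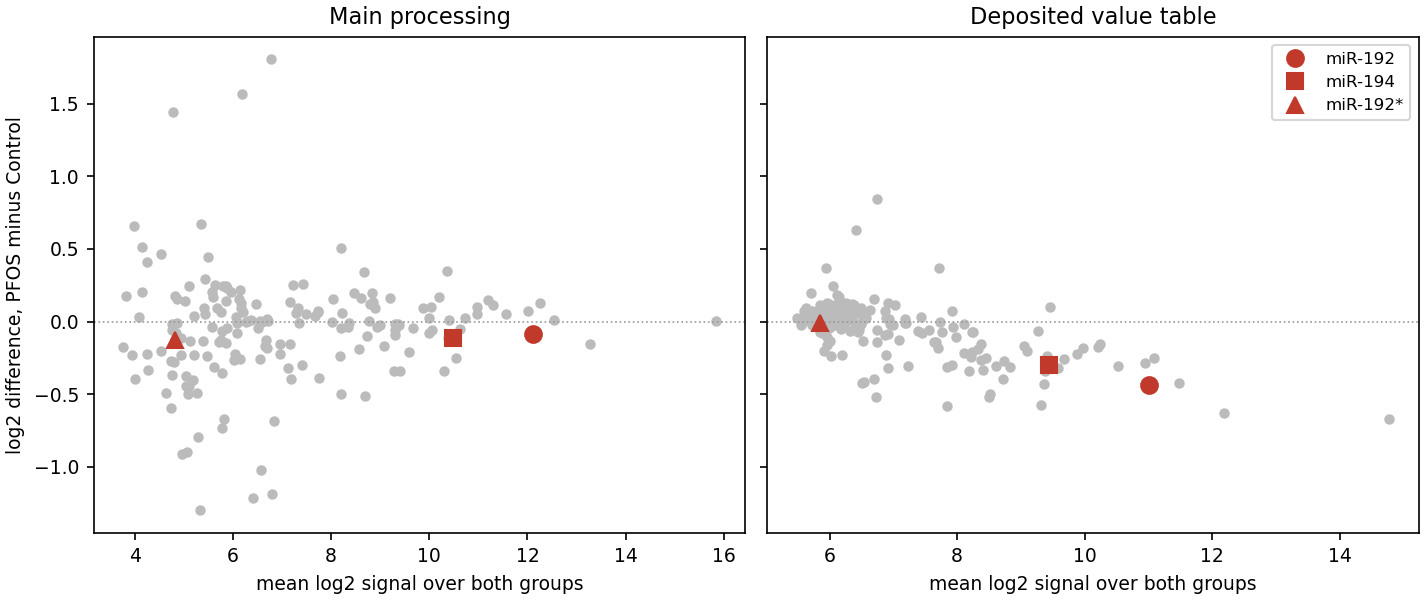
Log2 difference, PFOS minus Control, of the 175 tested miRNAs against their mean log2 signal, in the normalised scanner signals (left) and the deposited value table (right). Grey points are single miRNAs and red symbols the 3 members. Of the 20 brightest miRNAs, 19 lie below 0 at the right and 7 at the left, where the loess evens out differences that go with brightness.

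The choice of scaling moved the members with all other miRNAs. Under scaling to the 75th percentile of the detected miRNAs, with no loess, the log2 difference was -0.01 for miR-192 and 0.00 for miR-194. Scaling to the labelling spike-in gave -0.48 for miR-192 and -0.47 for miR-194 (limma, adjusted p = 0.110 and 0.0998), with the median of all tested miRNAs at -0.43. Scaling to the 75th percentile over all miRNAs gave 0.20 and 0.21, with the median at 0.25. Relative to the median of the miRNAs in each fit, miR-192 stayed within -0.13 to 0.06 and miR-194 within -0.12 to 0.03 over 17 settings. These leave out the deposited table and cyclic loess with equal weights. Some of the 17 repeat a value by arithmetic, since scaling each array by 1 factor moves a miRNA and the median together. The unscaled signal and both percentile scalings each gave -0.05 for miR-192 and -0.04 for miR-194. A change of moderation alone leaves the quantity the same as well. The positive ends came only from the setting with no detection filter, whose median covers all 677 miRNAs. In every other of these settings both lay below the median, at -0.13 to -0.05 for miR-192 and -0.12 to -0.04 for miR-194. In the deposited table the same quantity was -0.42 for miR-192 and -0.28 for miR-194.

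**Figure D5:**
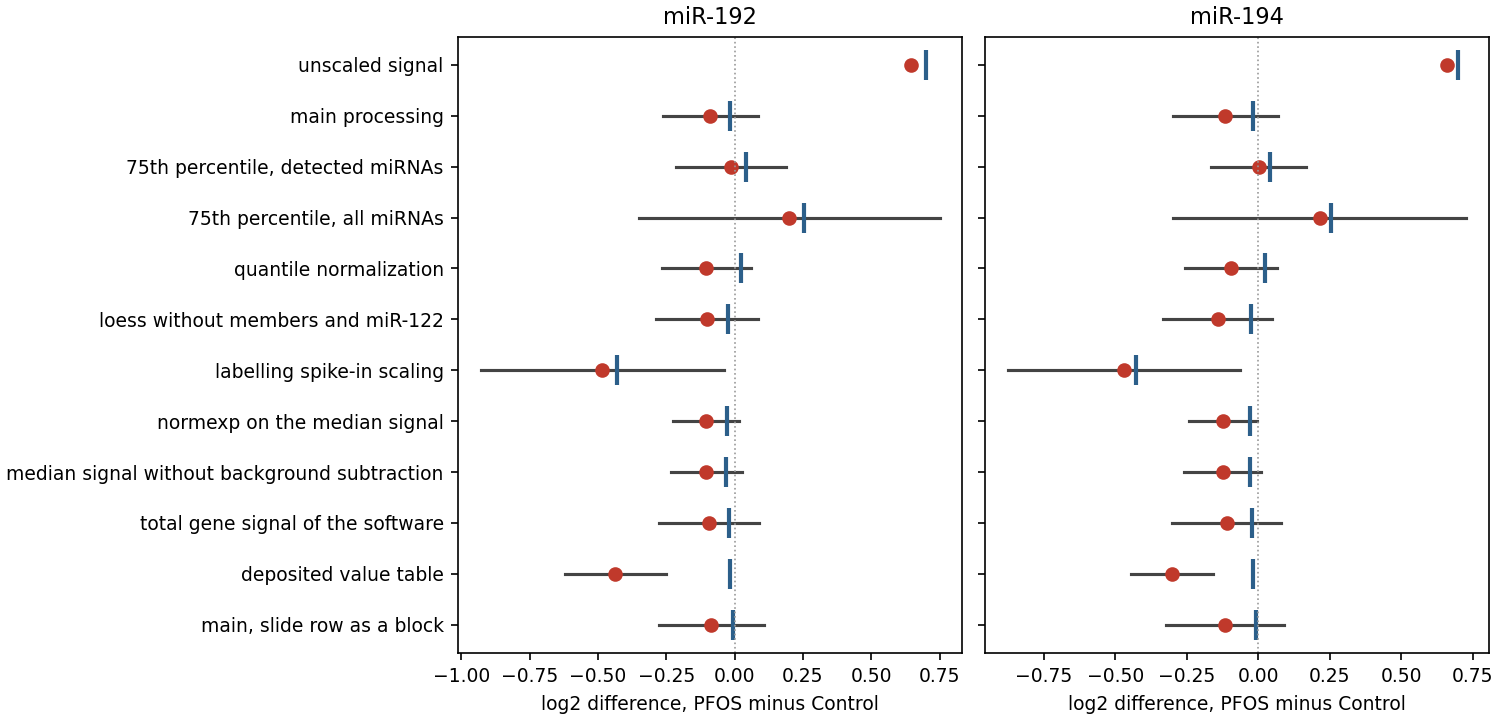
Log2 difference, PFOS minus Control, of miR-192 and miR-194 under 12 ways of handling the signals. Points are the differences, lines their 95% intervals from limma (none for the unscaled signal), and blue ticks the median of all tested miRNAs; the points lie near the ticks except in the deposited value table.

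By brightness miR-192 was 5th and miR-194 15th of the 175 tested miRNAs, which ranks signals and not molecules. The spread over arrays of miR-192, 4077 to 4752, overlapped that of its neighbours let-7f (4482 to 5291) and let-7a (3935 to 4429). The signal of miR-194, 1299 to 1531, likewise overlapped those of miR-122* (1283 to 1666) and let-7b (1251 to 1451). The brightest miRNA was miR-122, the defining hepatocyte miRNA, at 58654 in PFOS livers and 58485 in Control livers.

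The array pattern of miR-192 over the 7 arrays was most like those of miR-99a* (Pearson r of log2 signals 0.91), miR-34a (0.87) and miR-350 (0.81), of 174 others. Its cluster partner miR-194 came 26th, with r = 0.43. miR-194 was most like miR-223 (0.95), miR-21 (0.80) and miR-214 (0.77). Some of these partners were dim: the mean log2 signal was 4.00 for miR-350 and 5.11 for miR-99a*, against 4.82 for miR-192*. miR-214 was detected on 3 PFOS arrays and 1 Control array. These values describe 7 arrays that share groups, slide and normalisation.

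The hepatocyte-enriched list also holds the 3 members. Of 11 on the array, 10 were tested, of which 6 had a positive and 4 a negative log2 fold change, with a median of 0.01 against -0.02 for all 175 tested, and 0 passed by limma. The 3 members are among the 4 negative ones. This count keeps miR-192*, which was detected on only 1 Control array. Those of smallest p were miR-122* (-0.25, SE 0.08), the minor strand of the miR-122 hairpin, miR-101a (0.20, SE 0.07), miR-22* (0.23, SE 0.10) and miR-148b-3p (0.20, SE 0.10), with adjusted p of 0.185 to 0.351. In the deposited table the median of the list was -0.24, against -0.02 for all tested, and 5 were called, against 9 of 175 tested (5.14%). Those 5 include miR-192 and miR-194. All 5 are among the 20 brightest tested miRNAs, of which 7 were called in that table, against 2 of the other 155.

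The p53-linked list, which holds the 3 members, had 7 tested of 10 on the array. Without miR-145, which no Control array detected, 1 of the other 6 was positive and 5 were negative, with a median of -0.10 and 0 called by limma. The 3 members are among the 5 negative ones, so the count largely repeats their values. Of them, miR-192* was detected on only 1 Control array. Over all 175 tested miRNAs, 95 were negative. In the deposited table the median of the 7 was -0.30 and 2 were called, against 9 of 175 tested (5.14%). Both were the members already described, miR-192 and miR-194, which are among the 20 brightest tested miRNAs. Outside the members the smallest p values belonged to miR-107 (0.34, SE 0.10, adjusted p = 0.132), miR-34a (-0.69, SE 0.25, adjusted p = 0.224), the best known p53 target among miRNAs, and miR-145 (adjusted p = 0.227; detected on 3 PFOS arrays and no Control array, so without a fold). For miR-34a the mean signals were 89.7 in PFOS livers and 144 in Control livers.

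In the list of gut and kidney epithelium, where miR-192 and miR-194 are also abundant, 6 of 9 were tested. One of them, miR-429, was well above background in every PFOS liver and in none of the Control livers, so that it was tested only through the group where it was high and its direction was partly set by the filter. Of the other 5, 3 were positive and 2 negative, with a median of 0.20 and 0 called. The 2 negative ones were miR-192 and miR-194. The positive ones included miR-200b (1.81, SE 0.48) and miR-200a (1.57, SE 0.37), miRNAs of epithelial cells such as bile duct, each with an adjusted p of 0.131. The third positive one, miR-203, gave 0.20 (SE 0.15).

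Markers of other liver cells were read beside the members. The summed normalised signal of the biliary and epithelial markers was 323 to 560 on PFOS arrays and 87.8 to 212 on Control arrays. It includes miR-429, which no Control array detected, and the readings of miR-200c and miR-141, which no array detected. Among the 175 tested miRNAs, 17 (9.71%) had groups without overlap and PFOS higher. The other sums overlapped between groups, at 1088 to 1406 on PFOS arrays and 1204 to 1330 on Control arrays for leukocyte markers, and at 798 to 1101 on PFOS arrays and 871 to 1065 on Control arrays for stellate markers. Endothelial and erythroid sums overlapped too, and of the muscle markers miR-1, miR-133a and miR-133b were not detected. The hepatocyte markers, which include miR-192 and miR-194, summed to 64413 to 67167 on PFOS arrays and 65825 to 66836 on Control arrays. Most of this sum is miR-122, so it says little of the others. Of the 4 markers, 1 was positive and 3 negative, with a median log2 fold change of -0.10. In the deposited table all 4 were called lower by limma, with a median of -0.43. All 4 are among the 20 brightest tested miRNAs, of which 7 were called there. The part of cell composition in the members' values was not tested.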

How the data were processed

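RNA of 7 rats was measured, 1 per array; groups come from the sample titles, replicate numbers only name arrays, and members and lists were chosen with earlier results of these data known. Intensity was taken as the processed signal of Feature Extraction 10.7.3.1, per the file headers (background-subtracted, spatially detrended, not normalised between arrays). The deposited values are log2 and were normalised by the authors with cyclic lowess, per the labels; they show no background subtraction. The detection, outlier and saturation flags, other values of 0 or 1, were set by the same software, per the file headers.

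Unflagged spots were averaged per probe and probes summed per miRNA. A miRNA was detected where over 50% of the kept spots of a probe were well above background. Arrays were brought to a common 75th percentile of the 123 miRNAs seen everywhere, floored at the 1st percentile of detected signal (12.1) and log2-transformed. Arrays were then aligned by cyclic loess in limma 3.58.1 under R 4.3.3 (all pairs of arrays, a span of 0.7 and 3 rounds), in which only those 123 had weight. Groups were compared with lmFit and eBayes, with Benjamini-Hochberg adjustment over all tested miRNAs and a threshold of 0.05. Single measures were compared by exact permutation over 35 splits, unadjusted unless stated. Spike-in signals are the software's array statistics.

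Named miRNAs are the members, their relatives, the 3 most alike in array pattern to miR-192 and to miR-194, their neighbours in brightness, up to 4 per list by smallest p, and miR-122. The script was tested on simulated data. Alternatives changed normalisation, background, summary, filter, floor, moderation, slide row and arrays. Python 3.11.15 with matplotlib 3.10.9 and pandas 2.3.3, and data.table (version 1.17.8) in R, handled tables and figures.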

Additional observations from a re-analysis of the deposited data

Results flagged for a closer look

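Of 16 sets of PFOS values examined for a sample far from the others, 1 stood out, and chance flags about 1 in 20 groups. The normalised log2 signal of the miR-192 probe A_26_P00001435 was 10.45, 10.46, 10.46 and 10.60 on PFOS arrays 1 to 4, so that the gap of PFOS 4 to the nearest other array was 0.918 of the whole range. The other miR-192 probe, A_26_P00001436, gave 11.50, 11.37, 11.48 and 11.52 on the same arrays, with PFOS 2 the farthest. The cause was not tested.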

How the results depend on the processing

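No paired analysis was possible because the labels give the rats no replicate numbers shared between groups. Precision was limited by the 7 arrays, and for the starred strand by 2 of 3 Control readings not well above background. Called miRNAs, 0 in the normalised signals, were 3 with the 75th percentile over all miRNAs, 8 with the spike-in, 22 with normexp, 20 with the median signal, 1 with the software's total gene signal, 9 in the deposited table, 1 with no detection filter and 4 with slide row as a block; the members passed in none of these but the deposited table (-0.44 for miR-192, -0.30 for miR-194). Signs turned for miR-192 (0.20, 75th percentile over all miRNAs), for miR-194 (0.21 there, 0.0015 over detected miRNAs) and for miR-192* (0.19 with the 75th percentile over all miRNAs, 0.13 quantile, 0.018 total gene signal and 2.49 equal-weight loess). That loess gives full weight to the 458 miRNAs detected on no array, and its SE was 1.10 for miR-192. The log2 difference of miR-192 over miR-194 turned to -0.014 under both percentile scalings and the spike-in, -0.0086 under quantile normalisation, -0.17 under equal-weight loess and -0.13 in the deposited table. That of miR-192 over miR-192*, a description, turned to -0.23 (quantile), -3.38 (equal-weight loess), -0.034 (normexp), -0.022 (median signal), -0.11 (total gene signal), -0.023 (median over spots), -0.078 (mean of log2 probes) and -0.43 in the deposited table, where miR-192 alone gave -0.44. Leaving out each array gave -0.13 to -0.06 for miR-192 and -0.15 to -0.09 for miR-194, with no call for either. The ratio of miR-192 over miR-194 ranged from -0.025 to 0.066 and was not tested with an array left out. As descriptions, miR-192* ranged from -0.17 to -0.03 and miR-192 over miR-192* from -0.040 to 0.077. The probe A_26_P00003072 turned to -0.073 with percentile scaling and ranged from -0.00071 to 0.13 with an array left out. Of the members in the deposited values, 2 passed over the tested miRNAs, 1 with slide row as a block as well (chosen after seeing the data), and 0 to 2 with an array left out; miR-192* ranged from -0.023 to 0.011. Except where a construction is named, the cause was not tested.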
